A study of Mus musculus with 41 samples.

Results

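Zbtb16, Sall4, Foxo1 and Taf4b encode nuclear regulators that spermatogonial stem cells depend on, and their transcripts were followed through every RNA-seq and iSLAM-seq library of a mouse Rhox10 study. The 4 genes were chosen by name, from the biology of these cells, and are 4 of the 55536 genes in each count table. The rule that names them uses no measured value, but earlier results of these data were known when they were chosen. All 4 passed the filter on low counts in both assays. Their entries in the table of RHOX10 binding peaks were taken by gene name.

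ZBTB16 (PLZF) is a BTB-domain zinc finger protein that represses transcription through corepressor and histone deacetylase complexes, and testes that lack it lose their stem cells progressively. SALL4 is a zinc finger factor that recruits the NuRD remodelling complex and is present in undifferentiated spermatogonia. FOXO1 is a forkhead factor that AKT phosphorylation keeps out of the nucleus, and it is needed for stem cell maintenance. TAF4B is a gonad-enriched paralogue of the TFIID subunit TAF4, and its loss leaves the male germline unable to renew itself.

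RHOX10 is an X-linked homeodomain protein of the germline, and the study asked which genes answer to it as these stem cells form. RNA-seq compared 4 libraries of wild-type germ cells with 4 labelled Rhox10-null, all of strain C57BL/6 and all carrying the OCT4-eGFP reporter by which the cells were sorted. Each library pooled testes of 3 animals, whose age the labels do not give. The other 2 assays used cultured germline stem (GS) cells of the same strain, derived from testes of newborn mice (postnatal day 0 to 1).

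In all GS cultures, the controls included, endogenous Rhox10 had been knocked down with an shRNA lentivirus, so the cultures are a knockdown with or without a lentiviral replacement. For iSLAM-seq, cells received either Rhox10-ERT2-mCherry (here Rhox10), which 4-hydroxytamoxifen activates, or the ERT2-mCherry vector without Rhox10 (here Ctrl). There were 2 libraries per vector at each of 0, 0.5, 1, 2, 4 and 8 h, 24 in all, made with a kit that reads the 3′ ends of messenger RNA. The labels call them biological replicates, and nothing says that they were separate derivations, so p-values measure the spread between these libraries, which may be technical. CUT&Tag, which tags the DNA where an antibody sits, mapped HA-tagged RHOX10 in 3 libraries.

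RNA-seq libraries held 6602089 to 8278887 counts and iSLAM-seq libraries 9419615 to 12645845. A single gene, Gm42418, held 58.0% to 59.4% of all wild-type counts and 51.0% to 52.7% of those in libraries labelled null. Levels are therefore given as CPM, counts scaled to library depth, after TMM scaling, which lines libraries up on the bulk of genes. Rhox10 itself had 3, 10, 5 and 3 counts in the wild-type libraries and 11, 9, 4 and 6 in those labelled null; the counts do not verify the null label, and each direction in RNA-seq is that of the labels. In iSLAM-seq Rhox10 lay at 0.202 to 2.42 CPM in Ctrl and at 34.0 to 46.7 CPM in Rhox10 libraries, at 0 h as at later times. The 2 Ctrl libraries at 0.5 h differed from each other far more than any other pair (chi-square per degree of freedom 26.6, against at most 4.57 elsewhere in iSLAM-seq). Results that turn on them are given with and without them, an alternative chosen after the data were seen. In RNA-seq the replicate 4 libraries stood somewhat apart. Without both, also chosen after the data were seen, the 4 log2 fold changes reported for the members were -1.52 for Zbtb16, -0.76 for Sall4, -0.31 for Foxo1 and -0.33 for Taf4b (edgeR adjusted p at most 0.0226), in a fit that called 4061 genes.

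RHOX10 peaks lay at the start of 3 of the 4 genes, and 27.3% of the 13538 genes tested in RNA-seq had a peak within 3 kb of their start. The authors' deposited peak table holds 5147 peaks with scores from 13.7 to 2801.2, and the score is the authors' own. The Taf4b peak (GRCm38 chromosome 18, 14782920 to 14783460) had a score of 176.7, its centre was at -55 bases from the start site, and the authors annotated it as promoter. The Foxo1 peak (chromosome 3, 52267516 to 52268554) had a score of 120.5 and was centred at -302 bases, also in the promoter. The Sall4 peak (chromosome 2, 168766228 to 168767478) had a score of 99.6 and was centred 348 bases after the start, in intron 1 as annotated. Against a median score of 127.5 over the table, only the Taf4b peak was above the middle.

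No peak carried the name Zbtb16. None overlapped its gene body of 181.9 kb and none lay within 10 kb of its start. The nearest, named for Usp28 and with a score of 341.6, was 149.0 kb upstream. Zbtb16 was thus the member with no listed peak.

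The sequences under the Foxo1 and Sall4 peaks are shown because they are where RHOX10 was mapped at these members. Each run is the central 300 bases of the peak, read 5′ to 3′ on the gene's own strand from the RefSeq sequence of GRCm38. The Foxo1 run is chr3:52267885-52268184 (plus strand), entirely upstream of the annotated transcript, with the homeodomain core TAAT, on either strand (TAAT or ATTA), in capitals. The Sall4 run is chr2:168766703-168767002 (minus strand), with the 91 bases of exon 1, which are coding, in capitals and 209 bases of intron 1 in lower case.
Foxo1 peak centre: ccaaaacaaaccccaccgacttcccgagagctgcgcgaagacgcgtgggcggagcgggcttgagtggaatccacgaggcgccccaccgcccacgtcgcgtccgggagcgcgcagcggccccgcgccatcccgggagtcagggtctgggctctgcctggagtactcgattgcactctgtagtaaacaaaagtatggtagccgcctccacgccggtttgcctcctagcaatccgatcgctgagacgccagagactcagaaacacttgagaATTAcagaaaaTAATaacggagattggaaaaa
Sall4 peak centre: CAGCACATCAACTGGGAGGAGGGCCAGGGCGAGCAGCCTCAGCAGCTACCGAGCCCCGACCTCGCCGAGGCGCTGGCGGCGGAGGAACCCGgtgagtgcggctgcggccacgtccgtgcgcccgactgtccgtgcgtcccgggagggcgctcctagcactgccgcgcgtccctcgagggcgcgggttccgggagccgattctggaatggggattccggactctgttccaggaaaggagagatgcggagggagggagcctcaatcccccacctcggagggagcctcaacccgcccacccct

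TAAT occurred 2 times in the Foxo1 window and 0 times in the Sall4 and Taf4b windows, and 26.9% of 5143 peak windows of this length held it. The Foxo1 window also held GTAAACA 1 time, the core that forkhead factors such as FOXO1 bind, which 1.83% of the windows held on either strand; this word was looked for after the sequence had been read. GC content was 59.3% for Foxo1, 70.7% for Sall4 and 64.3% for Taf4b, against a median of 66.0%. These are matches of letters and describe no measured contact.

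In RNA-seq all 4 genes were lower in the libraries labelled null, by very different amounts. Zbtb16 fell to 0.317 of its wild-type level and Sall4 to 0.594, while Foxo1 and Taf4b fell to 0.836 and 0.839. Among 13538 genes tested, 18.9% were called lower (edgeR quasi-likelihood test, Benjamini-Hochberg adjusted p under 0.05), so being called is common here and it is the size of the Zbtb16 difference that stands out. Only 0.199% of the genes tested had a lower log2 fold change than Zbtb16, and 3.33% had a lower one than Sall4. In bulk samples, fewer cells of a type and less RNA per cell cannot be told apart.

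Zbtb16 (ENSMUSG00000066687, GRCm38 chromosome 9, 48654297 to 48836222, minus strand) was at 19.1, 22.1, 20.2 and 22.5 CPM in wild-type replicates 1 to 4. It was at 7.43, 6.89, 6.97 and 5.11 CPM in the libraries labelled null, from 38 to 68 counts each. The groups did not overlap, and the highest null-labelled library was far below the lowest wild-type one. The log2 fold change was -1.66 (standard error 0.109, 4 against 4 libraries, edgeR adjusted p = 1.98e-16).

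Sall4 (ENSMUSG00000027547, chromosome 2, 168748332 to 168767943, minus strand) was at 29.2, 29.5, 28.3 and 27.9 CPM in wild-type libraries. In those labelled null it was at 16.5, 17.1, 17.8 and 16.8 CPM. Both groups were tight and well apart. The log2 fold change was -0.75 (standard error 0.0746, edgeR adjusted p = 4.94e-11). The antisense gene Gm14261, which overlaps Sall4, had 0 to 3 counts per library, and whether the counting used strand is not stated.

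Foxo1 (ENSMUSG00000044167, chromosome 3, 52268336 to 52353221, plus strand) was at 21.2, 21.6, 19.7 and 18.9 CPM in wild-type libraries. In those labelled null it was at 17.3, 17.7, 15.5 and 17.5 CPM, so the groups did not overlap, although wild-type replicate 4 and null replicate 2 came close. The log2 fold change was -0.26 (standard error 0.0844, edgeR adjusted p = 0.0137). Without null replicate 3 the adjusted p was 0.0587. Gm38034, a gene model that overlaps Foxo1 on the same strand, had 11 to 26 counts per library, against 116 to 158 for Foxo1.

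Taf4b (ENSMUSG00000054321, chromosome 18, 14783245 to 14900359, plus strand) was at 18.2, 15.3, 16.3 and 16.6 CPM in wild-type libraries. It was at 13.3, 13.8, 12.7 and 16.1 CPM in those labelled null, where replicate 4 lay within the wild-type range and the other 3 lay below it. The log2 fold change was -0.25 (standard error 0.0958, edgeR adjusted p = 0.0337). This call was the least secure: leaving out any of null replicates 1, 2 and 3 or wild-type replicates 1 and 4 ended it (adjusted p from 0.0520 to 0.109). The groups of 3 of the 4 members did not overlap, as for 16.4% of all genes tested in this direction.

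**Figure D1:**
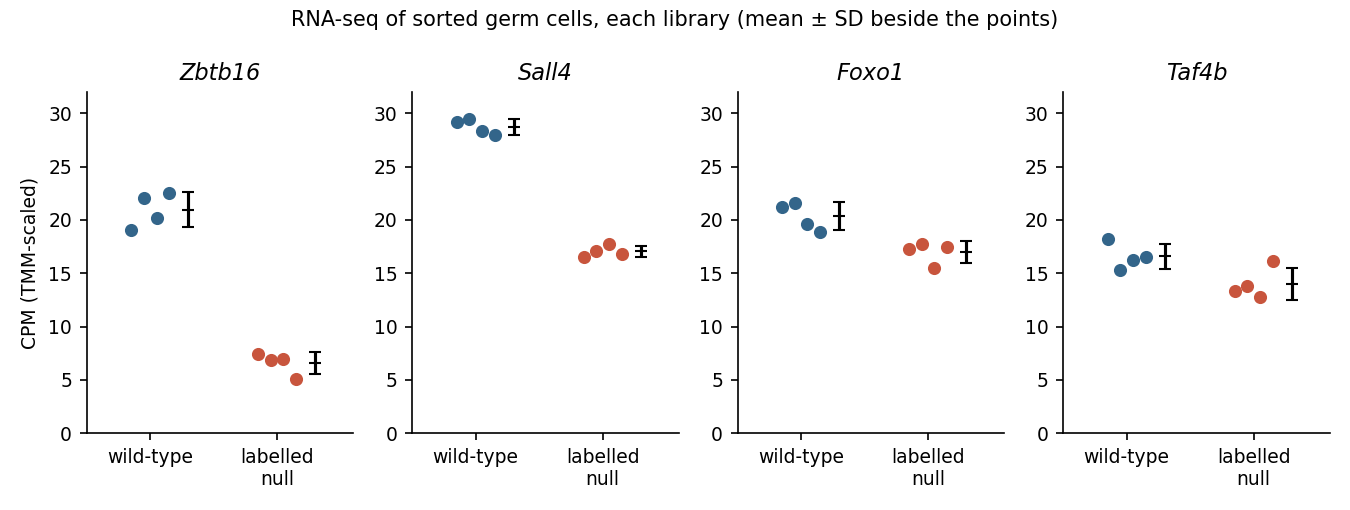
CPM (TMM-scaled, linear axis from 0) of each member in the 4 wild-type and 4 null-labelled RNA-seq libraries (points, replicates 1 to 4 from left to right), with mean ± SD. The groups separate widely for 2 genes, with Zbtb16 at 19.1 to 22.5 against 5.11 to 7.43 CPM and Sall4 going from 28.7 ± 0.709 to 17.0 ± 0.549 CPM, while the Taf4b points overlap.

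The order of the members changed with genotype. Per gene length (RPKM on the same scaling), the level in wild-type was 5.19 ± 0.128 for Sall4, 3.97 ± 0.305 for Zbtb16, 3.22 ± 0.231 for Taf4b and 2.35 ± 0.150 for Foxo1 (SD, n = 4). That order held in 4 of 4 wild-type libraries. In the libraries labelled null Zbtb16 was lowest in 4 of 4, at 1.25 ± 0.193 RPKM (SD, n = 4). Sall4, at 3.08 ± 0.0991 RPKM, and Taf4b, at 2.72 ± 0.291, overlapped there. Sall4 was above Taf4b in 3 of 4 of these libraries and below it in replicate 4, and the difference was not tested. Among all genes tested, Zbtb16 stood above 77.1% of genes per length in wild-type and above 35.6% in the libraries labelled null.

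**Figure D2:**
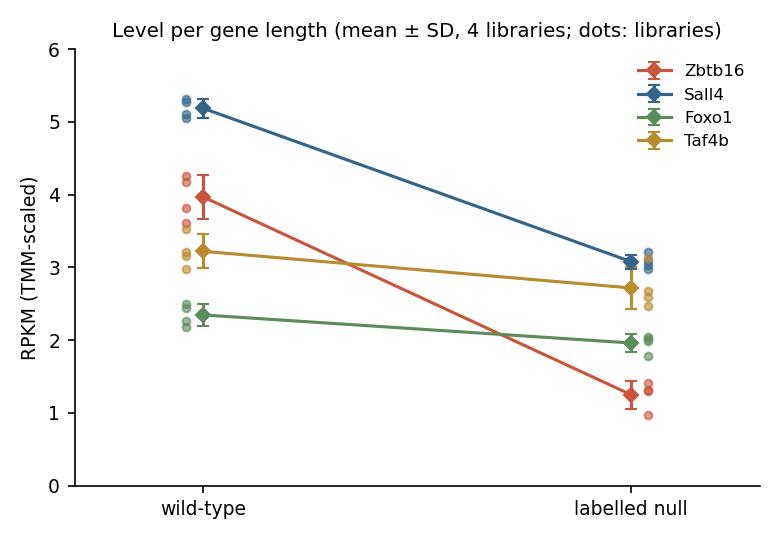
RPKM (linear axis from 0) of the 4 members in wild-type and null-labelled RNA-seq libraries; diamonds and bars are mean ± SD over 4 libraries and dots are single libraries. The Zbtb16 line runs from 3.97 to 1.25 RPKM and crosses those of Taf4b and Foxo1.

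Ratios of counts within a library do not depend on how libraries are scaled, and they put the members into 3 tiers. The log2 ratio of Zbtb16 to Sall4 was -0.46 ± 0.126 in wild-type and -1.38 ± 0.240 in libraries labelled null (SD, n = 4), a difference of -0.93. The ratios of Zbtb16 to Foxo1 and to Taf4b differed by -1.42 and -1.43, and those of Sall4 to Foxo1 and to Taf4b by -0.49 and -0.50. In these 5 pairs the groups did not overlap (two-sided exact permutation test with 70 possible arrangements: p = 0.0286, the smallest the design allows, and 0.0343 adjusted over 6 pairs). The Foxo1 to Taf4b ratio was 0.29 ± 0.139 in wild-type and 0.28 ± 0.120 in null-labelled libraries (exact permutation p = 0.914). Whatever the scaling, the signed change of Zbtb16 therefore lay below that of Sall4, and that of Sall4 below those of Foxo1 and Taf4b.

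The direction for the smaller differences did depend on scaling. With plain library totals, where the median over all genes moved up to 0.35, Zbtb16 (-1.31) and Sall4 (-0.40) were still lower, while Foxo1 and Taf4b were at 0.09 each, not called. Scaled to 12 germ cell genes, with a median of all genes at 0.88, Zbtb16 was lower by a log2 fold change of -0.78 (edgeR adjusted p = 4.43e-08). On that scale Sall4 was at 0.13 (not called, adjusted p = 0.142), and Foxo1 (0.62, adjusted p = 1.49e-08) and Taf4b (0.63, adjusted p = 1.40e-07) were higher.

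Markers of cell types moved with genotype in the same libraries. The 12 germ cell genes, among them Ddx4 and Dazl, summed to 277 to 297 CPM in wild-type and 148 to 159 CPM in libraries labelled null, and 12 of 12 were called lower. Dazl made up 26.0% of their counts. The 12 markers of undifferentiated spermatogonia, such as Gfra1 and Ret, summed to 137 to 153 against 58.7 to 65.1 CPM. Peritubular and stromal markers summed to 320 to 345 against 520 to 558 CPM, and erythroid markers to 1.36 to 4.07 against 78.3 to 86.8 CPM. Sertoli markers gave no single direction, with 2 called higher, 3 lower and 4 not called, and overlapping sums of 491 to 521 and 521 to 539 CPM, of which Amh made up 31.8%. None of these lists had a gene at 0 in all 8 libraries. Set against the summed germ cell counts, Zbtb16 was 7.42% ± 0.732 in wild-type and 4.28% ± 0.675 in null-labelled libraries, Sall4 10.1% ± 0.338 and 11.1% ± 0.652, Foxo1 7.18% ± 0.444 and 11.0% ± 0.373, and Taf4b 5.85% ± 0.254 and 9.08% ± 0.933 (SD, n = 4). The part of cell makeup in the members' differences was not tested.

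In GS cells, all 4 transcripts were lower with Rhox10 than with Ctrl when the 5 times from 0.5 to 8 h were averaged, the same sign as in the libraries labelled null, although here the contrast adds Rhox10 and there it removes it. The differences were small, the levels with Rhox10 being 0.737 to 0.880 of those with Ctrl. Of 20642 genes tested, 18.4% were called lower in this contrast. Levels in these 3′ end counts are not compared between genes.

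Zbtb16 ranged from 176 to 235 CPM in the 10 Ctrl libraries, with a median of 203, and from 153 to 184 CPM in the 10 Rhox10 libraries, with a median of 168. Of the Rhox10 libraries, 8 of 10 lay below the lowest Ctrl library. The log2 fold change was -0.29 (standard error 0.0418, edgeR adjusted p = 6.75e-06).

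Sall4 ranged from 178 to 206 CPM in Ctrl (median 194) and from 131 to 154 CPM in Rhox10 libraries (median 142). The 10 libraries of each vector did not overlap, which held for 3.17% of the genes tested in this direction. The log2 fold change was -0.44 (standard error 0.0333, edgeR adjusted p = 3.11e-10), the largest of the 4.

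Foxo1 ranged from 175 to 213 CPM in Ctrl (median 185) and from 139.6 to 197 CPM in Rhox10 libraries (median 167), with 6 of 10 Rhox10 libraries below the lowest Ctrl one. Its log2 fold change was -0.18 (standard error 0.0343, edgeR adjusted p = 1.47e-04). Taf4b ranged from 137 to 231 CPM in Ctrl (median 179) and from 130 to 190 CPM in Rhox10 libraries (median 158), with 2 of 10 below the lowest Ctrl library. That lowest library was Ctrl 0.5 h replicate 2, from the pair that differed strongly from each other. The next lowest Ctrl library was at 172 CPM (1 h replicate 2), above the Rhox10 median. The count of 2 therefore turns on that lowest library. The Taf4b log2 fold change was -0.23 (standard error 0.0394, edgeR adjusted p = 6.55e-05). Taf4b thus spread most widely within each vector.

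The vectors already differed at 0 h. Sall4 was at 181 and 166 CPM in Ctrl and at 144 and 140 CPM in Rhox10 libraries at that time, a log2 fold change of -0.29 (edgeR adjusted p = 0.0132), and 4.32% of genes were called lower. This call was lost without Ctrl replicate 1 or either Rhox10 library of that time (adjusted p from 0.0519 to 0.181). Taf4b (-0.27, adjusted p = 0.0518), Zbtb16 (-0.20, adjusted p = 0.206) and Foxo1 (-0.11, adjusted p = 0.420) were not called, with 95% intervals of -0.45 to -0.09, -0.39 to -0.0026 and -0.27 to 0.05. In the fit without both Ctrl 0.5 h libraries, Zbtb16 (adjusted p = 0.0257) and Taf4b (adjusted p = 0.00102) were called too, with 18.8% of genes called in either direction.

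**Figure D3:**
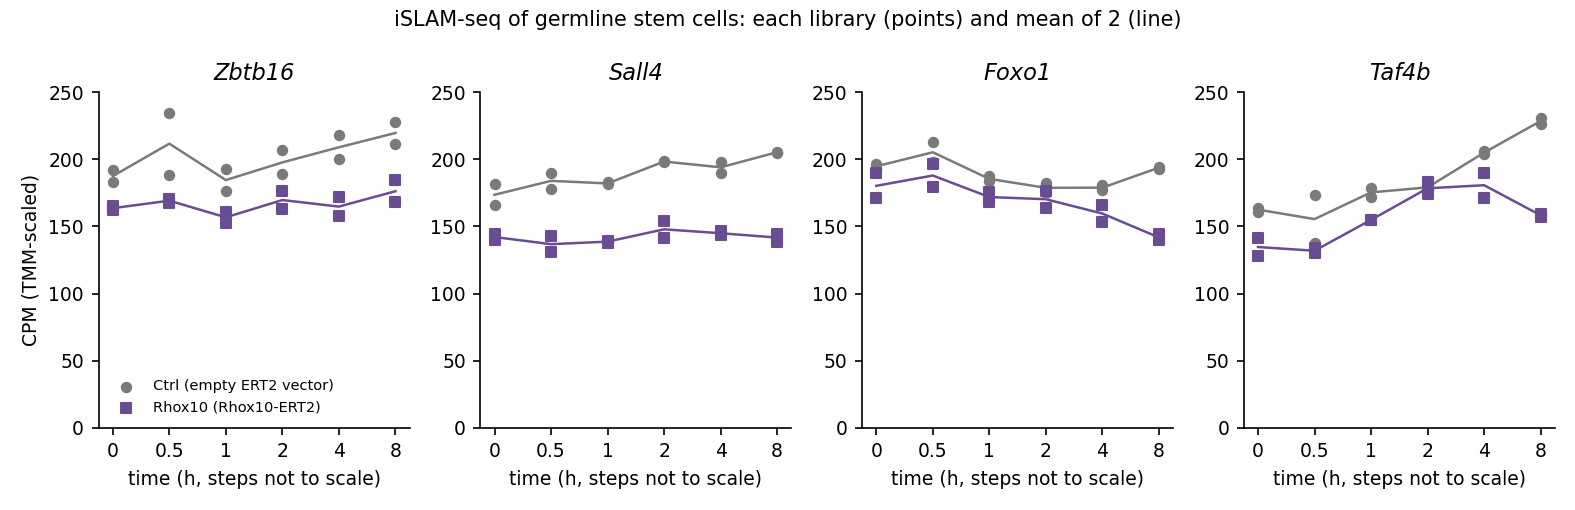
CPM (TMM-scaled, linear axis from 0) of each member in the 24 iSLAM-seq libraries at 0 to 8 h (time steps not to scale); points are libraries and lines the mean of 2. Sall4 with Rhox10 stays at 131 to 154 CPM, Foxo1 with Rhox10 ends at 140 to 144 CPM, and Taf4b climbs to 226 to 231 CPM in Ctrl but ends at 157 to 159 CPM with Rhox10.

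Sall4 was lower at each later time as well. At 0.5 h the Ctrl libraries held 178 and 190 CPM and the Rhox10 libraries 131 and 143 CPM, and at 1 h they held 183 and 181 against 139 and 138 CPM. By 2 h the values were 198 and 198 against 142 and 154 CPM. The 4 h values were 190 and 198 against 144 and 146 CPM, and the 8 h values 205 and 206 against 139 and 145 CPM. It was called at all 5 of these times, with log2 fold changes of -0.43, -0.39, -0.42, -0.42 and -0.53 in order. The shares of genes called lower at the same times were 6.51%, 3.9%, 3.94%, 5.74% and 8.79%.

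Zbtb16 was called lower at 0.5 h (-0.32), 4 h (-0.34) and 8 h (-0.32) and not at 1 h (-0.24) or 2 h (-0.22). At 8 h it was at 228 and 211 CPM in Ctrl and 184 and 168 CPM with Rhox10 (edgeR adjusted p = 0.0208). The 4 libraries at each time are few: without any 1 of those at 4 h or 8 h the Zbtb16 call at that time was lost. At 0.5 h it was lost without Ctrl replicate 2, which at 235 CPM was the highest of all libraries for Zbtb16 (log2 fold change -0.16 and adjusted p = 0.266 without it), and without either Rhox10 library. In the fit without both Ctrl 0.5 h libraries, Zbtb16 was also called at 1 h (adjusted p = 0.0115) and 2 h (adjusted p = 0.0218), with 17.1% and 17% of genes called.

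Foxo1 and Taf4b were called lower at 8 h, where 4 of 4 members and 8.79% of all genes were, and at none of the times from 0.5 to 4 h. Foxo1 at 8 h was at 193 and 194 CPM in Ctrl and 140 and 144 CPM with Rhox10, the lowest 2 of its 24 libraries, a log2 fold change of -0.45 (standard error 0.0773, edgeR adjusted p = 2.12e-04). From 0.5 to 4 h its differences lay between -0.16 and -0.07. The Foxo1 and Taf4b differences at 4 h (-0.15 and -0.17) were called when only the 4 libraries of that time were fitted (adjusted p = 0.0446 and 0.0163). That fit called many more genes than the fit over all libraries. Taf4b at 8 h was at 226 and 231 CPM in Ctrl and 157 and 159 CPM with Rhox10, a log2 fold change of -0.53 (standard error 0.0882, edgeR adjusted p = 1.52e-04). At 2 h the vectors met, with Taf4b at 180 and 178 against 183 and 174 CPM (-0.01, 95% interval -0.19 to 0.18). Its difference at 0.5 h was -0.40 without Ctrl replicate 2 of that time, in a fit that leaves 1 library in that group.

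**Figure D4:**
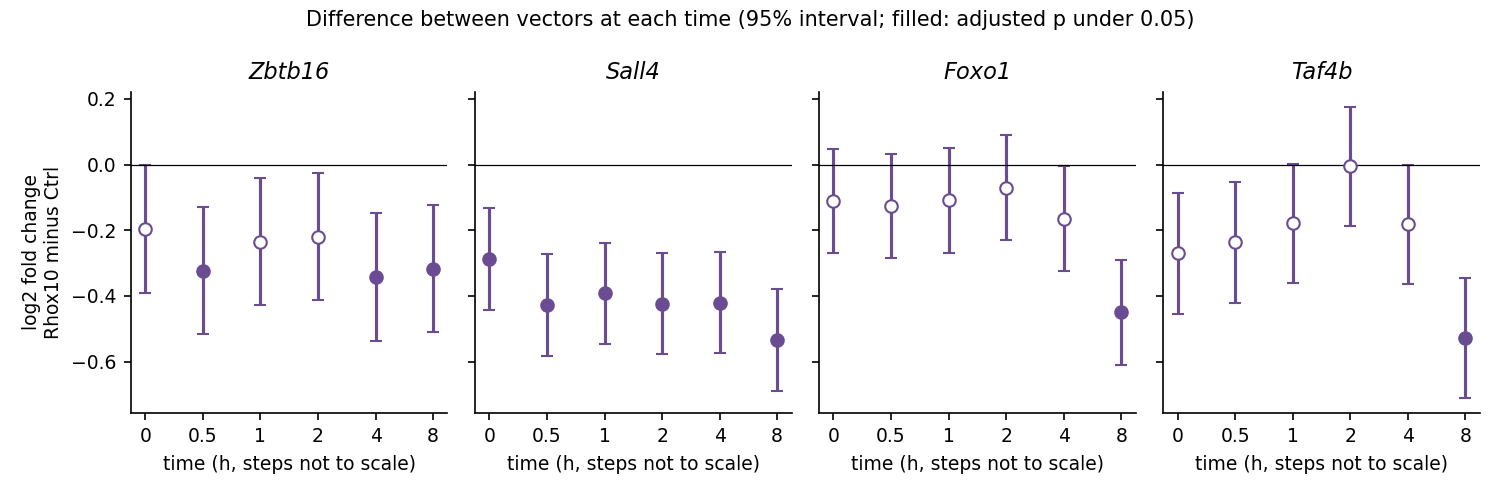
Log2 fold change (Rhox10 minus Ctrl) of each member at 0 to 8 h (time steps not to scale) with 95% intervals from edgeR; filled circles have an adjusted p under 0.05. Sall4 is filled at 6 of 6 times, while Foxo1 and Taf4b are filled at 8 h only, at -0.45 and -0.53.

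Whether the vector difference changed from 0 h was tested directly, and none of the 4 was called over all 24 libraries, where 2.39% of genes were. The edgeR adjusted p was 0.943 for Zbtb16, 0.769 for Sall4, 0.306 for Foxo1 and 0.222 for Taf4b, and the unadjusted p was 0.0229 for Foxo1 and 0.0123 for Taf4b. Without both Ctrl 0.5 h libraries Foxo1 (adjusted p = 0.0217) and Taf4b (adjusted p = 4.08e-04) were called, and 7.66% of genes were. Zbtb16 (adjusted p = 0.836) and Sall4 (adjusted p = 0.548) were not. Foxo1 and Taf4b were also called without either 1 of that pair, but such a fit leaves 1 library in that group. Calls over all genes varied widely between fits with 1 library left out, so these calls say little about these genes in particular.

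In the fit without that pair, the Foxo1 difference moved by -0.31 from 0 to 8 h (95% interval -0.49 to -0.13, edgeR adjusted p = 0.0252), where 6.64% of genes were called. The Taf4b difference moved by -0.23 over the same span and was not called (95% interval -0.41 to -0.05, adjusted p = 0.124). It moved by 0.28 from 0 to 2 h (adjusted p = 0.209) and by -0.35 from 4 to 8 h (95% interval -0.53 to -0.17, adjusted p = 0.0122, with 3.51% of genes called), a contrast chosen after the time course had been seen. Foxo1 moved by -0.29 from 4 to 8 h and was not called (adjusted p = 0.0723). With all 24 libraries the 4 to 8 h change of Taf4b was -0.35 with an adjusted p of 0.292, and 0.998% of genes were called. Whether the 2 genes' courses differ from each other was not tested.

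Taf4b differed between times within each vector. In Ctrl it was at 161 and 164 CPM at 0 h, 206 and 204 CPM at 4 h and 226 and 231 CPM at 8 h. The test over all times was called (edgeR adjusted p = 0.00104, with 5.74% of genes called), and so were the rises of 0.33 at 4 h and 0.49 at 8 h (log2, against 0 h), where 2.17% and 3.84% of genes were called higher. With Rhox10 it went from 142 and 128 CPM at 0 h to 183 and 174 CPM at 2 h, 190 and 171 CPM at 4 h and 157 and 159 CPM at 8 h. That course was called as well (adjusted p = 0.00164, with 9.44% of genes called), with rises of 0.41 at 2 h and 0.42 at 4 h, where 2.07% and 3.12% of genes were called higher. The value of 0.23 at 8 h was not called (adjusted p = 0.127), and was called at 0.25 without both Ctrl 0.5 h libraries (adjusted p = 0.00513, with 13.4% of genes called).

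Foxo1 changed over time with Rhox10 (edgeR adjusted p = 0.00992), from 190 and 171 CPM at 0 h to 139.6 and 144 CPM at 8 h, a log2 change of -0.35 (adjusted p = 0.00585), where 4.06% of genes were called lower. That test lost its call without Rhox10 0.5 h replicate 2 or either 8 h library (adjusted p from 0.0652 to 0.135). In Ctrl, Foxo1 was not called (adjusted p = 0.364), except without Ctrl 0.5 h replicate 1, which left 1 library in that group. Its change from 0 to 8 h in Ctrl was -0.01 (95% interval -0.17 to 0.15). Zbtb16 and Sall4 were not called over time in either vector. Without both Ctrl 0.5 h libraries they were called within Ctrl (adjusted p = 0.0268 and 0.0496), where 11.1% of genes were, with rises of 0.21 and 0.23 (log2) at 8 h, where 13.7% were. Within Rhox10 they were not called in that fit (adjusted p = 0.366 and 0.729). Leaving out either 1 of that pair gave the same 2 calls within Ctrl, but such a fit leaves 1 library in that group. Calls over all genes varied widely between such fits as well.

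Germ cell markers were lower with Rhox10 too: 9 of the 12 general ones and 11 of 12 of the undifferentiated list were called lower in the averaged contrast. At 0 h 6 and 8 of them were already called lower and 0 higher (medians -0.29 and -0.42), where 4.32% of all genes were called lower. At 8 h 7 and 11 were called lower (medians -0.39 and -0.89), where 8.79% of all genes were. The undifferentiated markers summed to 1882 to 2416 CPM in the 12 Ctrl libraries and to 1329 to 1787 CPM in the 12 Rhox10 libraries. The general germ cell markers overlapped, at 1845 to 2585 against 1933 to 2171 CPM. The lowest Ctrl sum was that of 0.5 h replicate 2, from the pair that differed strongly from each other. Every other Ctrl library lay above all Rhox10 libraries in this sum. Per summed general germ cell counts, the members overlapped between vectors, with medians of 7.70% in Ctrl and 6.87% in Rhox10 libraries for Sall4, 8.14% and 8.29% for Zbtb16, 7.91% and 8.31% for Foxo1, and 7.39% and 7.74% for Taf4b. Dazl alone made up 55.5% of these summed germ cell counts. Peritubular and stromal markers, Col1a1 most of all, summed to 704 to 1225 CPM in Ctrl and 778 to 1486 CPM in Rhox10 libraries, and Sertoli markers to 190 to 454 and 252 to 567 CPM, almost all of it Sox9, with Amh and Rhox8 at 0. Erythroid markers reached at most 2.31 CPM. The part of these lists in the members' differences was not tested.

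Genes that work with each member were described from lists of partners, against 18.6% of all genes called higher and 18.9% lower in RNA-seq and 18.7% and 18.4% in the averaged iSLAM-seq contrast. In iSLAM-seq, rose and fell stand for higher and lower with Rhox10 than with Ctrl, not for a change from 0 h. At 0 h 4.32% of all genes were called lower, and at 8 h 8.79%. Directions given for RNA-seq lists hold on the TMM scale. With library totals Cul3 and Chd4 changed sign, and on the germ cell scale Bmi1, Gatad2a, Pik3cb, Taf7l and Taf2 did so too. The median over all genes was 0.35 with library totals and 0.88 on the germ cell scale. On each of these scales most of all genes tested were called higher. Counts of list genes on these scales are to be read against that shift.

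For ZBTB16, 14 genes for corepressors, partners and targets were tested, and in RNA-seq 3 rose, 3 fell and 8 did not pass (median log2 fold change 0.00, as over all genes at 0.00). With library totals 10 rose and 0 fell, and on the germ cell scale 14 rose and 0 fell. Ncor1, a nuclear corepressor scaffold, rose by 0.22 and Rcor1 of the CoREST complex by 0.25. Bmi1, a Polycomb protein, fell by 0.47 and Cul3, a ubiquitin ligase scaffold, fell by 0.22. In the averaged iSLAM-seq contrast 6 rose and 4 fell, among them Zbtb7a, a related POZ zinc finger repressor, at 0.68 and Ddit4, an inhibitor of mTORC1, at 0.58, against Sin3a, a corepressor scaffold, at -0.21 (median -0.04). At 0 h in iSLAM-seq 3 of this list were called higher and 0 lower (median 0.07).

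Of 16 SALL family and NuRD genes tested, 3 rose and 5 fell in RNA-seq and again 3 rose and 5 fell in iSLAM-seq (medians -0.10 and -0.08). The RNA-seq counts became 11 and 0 with library totals and 15 and 0 on the germ cell scale. Chd4, a NuRD remodelling ATPase, fell by 0.19 in RNA-seq and by 0.39 in iSLAM-seq. Chd3, its paralogue, was at 0.38 in RNA-seq and -0.45 in iSLAM-seq. Sall2 rose by 0.59 in RNA-seq and Gatad2a, a NuRD subunit, fell by 0.42. In iSLAM-seq Mbd3, which anchors NuRD, rose by 0.27 and Sall1 by 0.24. At 0 h in iSLAM-seq 3 of this list were called lower and 0 higher (median -0.11).

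Among 19 FOXO family and PI3K-AKT genes tested in RNA-seq, 4 rose and 1 fell (median 0.03), against 15 and 0 with library totals and 19 and 0 on the germ cell scale. Pdpk1, which activates AKT, rose by 0.37, while the catalytic subunit gene Pik3cb fell by 0.56. In iSLAM-seq 5 of 20 rose and 7 fell (median -0.03). Foxo6 was at -0.51 and Rictor, a subunit of mTORC2, at -0.30, and Pik3r1, a regulatory subunit of PI3K, was at 0.48 and Sgk1, a kinase related to AKT, at 0.23. At 0 h in iSLAM-seq 2 of this list were called higher and 1 lower (median 0.07).

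Of 17 TFIID genes tested in RNA-seq 7 fell and 0 rose (median -0.25, against 0.00 over all genes). With library totals 2 fell and 3 rose (median 0.10, against 0.35 over all genes). On the germ cell scale 0 fell and 14 rose (median 0.63, against 0.88 over all genes). Of 18 tested in iSLAM-seq 9 fell and 0 rose (median -0.15), as also with library totals. Taf7l, a germ cell paralogue of Taf7, fell by 0.73 and Taf2 by 0.49 in RNA-seq. In iSLAM-seq Taf1, the largest TFIID subunit, fell by 0.47 and Taf7 by 0.46. The list was already shifted at 0 h, with 3 called lower and 0 higher (median -0.27). At 8 h 4 were called lower and 0 higher (median -0.13).

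Of 18 other transcription regulators of spermatogonia tested in RNA-seq, 11 fell and 1 rose (median -0.80). With library totals 11 fell and 3 rose (median -0.46), and on the germ cell scale 3 fell and 8 rose (median 0.07). Egr4 fell by 1.61 and the RNA-binding protein gene Lin28a by 1.27, and Stat3 rose by 0.37. Of 23 tested in iSLAM-seq 14 fell and 3 rose (median -0.25). Lhx1, a GDNF-responsive homeobox gene, and Eomes, a T-box factor gene, fell most clearly, with Eomes at -1.10, against Rarg, a retinoic acid receptor, at 0.32 and Mycn at 0.30. The list was already shifted at 0 h in iSLAM-seq, with 8 called lower and 0 higher (median -0.30). At 8 h 12 were called lower and 1 higher (median -0.60). Of this list, 9 genes are also among the markers of undifferentiated spermatogonia.

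**Figure D5:**
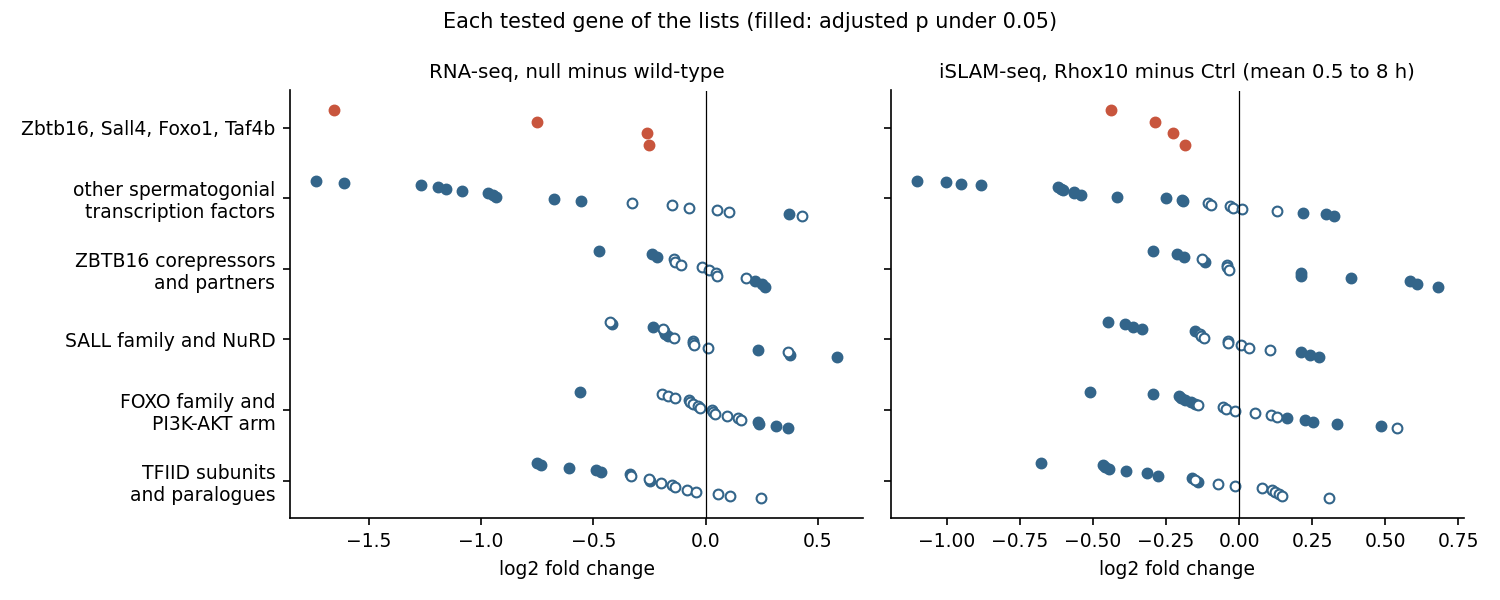
Log2 fold change of each tested gene of the partner lists (one point each, filled where the edgeR adjusted p was under 0.05) with the 4 members in the top row; left, RNA-seq null minus wild-type, right, iSLAM-seq Rhox10 minus Ctrl averaged over 0.5 to 8 h. The 4 members lie left of 0 in both panels, from -1.66 to -0.25 and from -0.44 to -0.18.

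Across the 24 iSLAM-seq libraries, Zbtb16 and Sall4 varied together (Pearson r of log2 CPM 0.844) and Foxo1 and Taf4b did not (r = 0.0189). These libraries share vectors and times, so the r values only describe them. The genes most like Zbtb16 among 9555 genes were Prmt5 (r = 0.934), Nop56 and Ftsj3. Those most like Sall4 were Cxcl14 (r = 0.963), Rpl10l and Sbno1, those most like Foxo1 were Ttll12 (r = 0.886), Syngr2 and Kdm5b, and those most like Taf4b were Nol9 (r = 0.935), Nfatc2 and Rpl4. Over the 8 RNA-seq libraries, where any gene that differs between genotypes correlates, the closest were Mcam for Zbtb16 (r = 0.998), Piwil2 for Sall4 (r = 0.996), Pip5k1a for Foxo1 (r = 0.984) and Mios for Taf4b (r = 0.972).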

How the data were processed

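The authors deposited 1 table of raw counts per gene for RNA-seq and 1 for iSLAM-seq, per the file headers. Per the submitters' processing notes RNA-seq used STAR 2.5.2b and featureCounts on GRCm38, and iSLAM-seq used limma 3.42.2 with mm10; the iSLAM-seq counter, and whether all reads or only converted reads were counted, are not given in the sources used here, nor is the strand setting. The peak score is the authors' deposited HOMER score (alignment by Bowtie2 2.2.5), and the table holds 5147 peaks merged over the 3 RHOX10 libraries; the IgG and Ctrl CUT&Tag libraries were not analysed here. All 55536 identifiers matched GENCODE M21. Of 5029 peaks, 4989 had the stated distance to a start site within 1000 bases, so mm10 coordinates are GRCm38. Among the members only Foxo1 was in the RefSeq promoter table.

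Counts were tested with edgeR 4.0.16 in R 4.3.3 (TMM, filterByExpr, quasi-likelihood, adjustment over all genes). RNA-seq was fitted by genotype and iSLAM-seq by 12 group means over 24 libraries. Standard errors are the log2 fold change over the square root of F. On simulated data with 200 genes changed 1 log2 unit, the RNA-seq fit recovered 200 of 200 (18 false among 13318 genes), and of 19913 genes the averaged iSLAM-seq contrast recovered 200 (17 false), the 8 h contrast 157 (8 false) and the change from 0 h 106 (14 false). Exact tests used SciPy 1.17.1. Sequences were read with pysam 0.24.0.

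The members, lists, tests and alternatives were chosen with earlier results of these data known. Named beside the members were Rhox10, up to 2 called genes per direction, list and comparison by smallest p (minimum mean 5 CPM), and the 3 genes of highest correlation (minimum mean 10 CPM), of which the closest is printed for RNA-seq. Some genes that meet this rule are not reported here. Alternatives were DESeq2 1.42.0, limma voom (limma 3.58.1), other scalings, no filter, a replicate block, single time points and leaving out each library.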

Additional observations from a re-analysis of the deposited data

Results flagged for a closer look

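The log2 ratio of Sall4 to Foxo1 counts in the libraries labelled null had 1 library apart from the rest. Replicate 3 was at 0.20 and the other 3 lay close together just below 0, the lowest at -0.07, so the gap was 0.960 of the whole range. Of 22 groups of 4 to 10 libraries examined this way 1 was marked, and chance gives about 1 in 20, or 1.1 groups. Without replicate 3 the difference in this ratio between genotypes was -0.56, against -0.49 with it.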

How the results depend on the processing

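Zbtb16 was lower in the libraries labelled null under every scaling, filter and tool tried. Library totals (7858 genes called, 7229 higher and 629 lower) put Foxo1 at 0.0891 and Taf4b at 0.0947, and scaling to 12 germ cell genes (12233 called, 12161 higher and 72 lower) put Sall4 at 0.13, Foxo1 at 0.62 and Taf4b at 0.63. DESeq2 did not call Foxo1 (-0.27, adjusted p = 0.0627) or Taf4b (-0.26, adjusted p = 0.113), and without a filter Taf4b was not called (-0.25, adjusted p = 0.0645). Leaving out 1 library each gave -0.31 to -0.22 for Foxo1 and -0.32 to -0.21 for Taf4b. The same for the ratios gave -1.003 to -0.81 (Zbtb16 to Sall4), -1.50 to -1.29 (Zbtb16 to Foxo1), -1.52 to -1.24 (Zbtb16 to Taf4b), -0.56 to -0.47 (Sall4 to Foxo1) and -0.57 to -0.43 (Sall4 to Taf4b); 3 against 4 libraries cannot reach an adjusted p below 0.0686.

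The 4 averaged iSLAM-seq differences were called under all alternatives run. Scaling to the germ cell genes was not among the alternatives run for iSLAM-seq. Genes called at single times, from only the 4 libraries of that time, were 0 (0.5 h), 3604 (1 h), 3516 (2 h), 4816 (4 h) and 5237 (8 h), against 2983, 2045, 2070, 2521 and 3477 in the fit over all libraries. With 1 library left out they were 1076 to 1327 (0 h), 1527 to 5984 (0.5 h), 970 to 1022 (1 h), 1022 to 1112 (2 h), 1238 to 1334 (4 h) and 1976 to 2039 (8 h). Without both Ctrl 0.5 h libraries they were 3852 (0 h), 3517 (1 h), 3496 (2 h) and 3940 (4 h). Change from 0 h was called for 494 genes, for 1002 without a filter, 746 by DESeq2, 1571 without both Ctrl 0.5 h libraries (Foxo1 0.0217, Taf4b 4.08e-04) and 314 to 4331 with 1 library left out (adjusted p 0.0162 to 0.712 for Foxo1 and 1.75e-04 to 0.517 for Taf4b). Change within Ctrl was called for 2450 without a filter, 2284 without that pair and 764 to 6099 with 1 library left out, and within Rhox10 for 4509 without that pair. Among peaks above the median score, 0 were at Sall4 and 0 at Foxo1. The cause of these shifts was not tested. In RNA-seq the members rest on 38 to 206 counts a library, and the 95% intervals of Foxo1 and Taf4b reach to -0.09 and -0.06.

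Replicate numbers recur across groups but showed no pairing between vectors at the same time or between genotypes. Deviations of same-numbered libraries correlated at -0.116 to 0.0761 in iSLAM-seq and at -0.0127 to 0.0494 over 4 RNA-seq pairs. In iSLAM-seq both pairs of a time give the same value, because each group holds 2 libraries. Pairing across times within a vector was not examined. With a replicate block 5066 genes were called in RNA-seq and 7687 in the averaged iSLAM-seq contrast, and among the members' calls only Taf4b at 0 h changed, to called (-0.27, adjusted p = 0.0365).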
